A study of Mus musculus with 23 samples.

Results

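The regions described here are NR5A2-bound stretches of the mouse genome that lie nearest to genes of glycolysis, sugar and lactate transport, pyruvate oxidation, the citrate cycle and the malate-aspartate shuttle. A region of the deposited table was taken when its nearest protein-coding gene, by gene spans of RefSeq (GRCm38.p6, the assembly of mm10), was on a list of 51 such genes and lay within 50 kb of the region's midpoint. This gave 71 of 16958 regions, near 29 of the 51 genes, and none of the 71 had a tie for its nearest gene. The assignment is by distance alone and does not show which gene a region acts on. The authors class 36 of the 71 as bound and accessible and 35 as bound but not accessible. The midpoint lay inside the gene span for 44 regions and outside it for 27.

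Open chromatin was profiled by ATAC-seq, which tags DNA that a transposase can reach, in mouse embryos at the 8-cell stage. The groups were 13 mz_NrKO embryos, knockouts of the maternal-zygotic (mz) series, set against 8 mz_NrHet embryos, heterozygotes of the same series, and 1 iNrKO_plus_Tam_NrKO pool set against 1 iNrKO_minus_Tam_Nrpp pool. Both pools come from the inducible knockout series: embryos were taken at 30 h post hCG, as early 2-cell embryos, and spent 45 h in culture, the treated pool with 750 nM 4-hydroxytamoxifen during the first 24 h. The mz embryos were analysed ex vivo, without such a culture. The labels do not say whether the heterozygotes had maternal Nr5a2, and they name neither the Cre driver nor the number of embryos in a pool. A drug-treated pool that keeps Nr5a2 is not among the samples, so the drug and the deletion cannot be told apart.

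The table holds 1 merged value per group and region, in RPKM (a read count scaled for depth by the authors), so the spread between embryos is not known here. Whole reads were recovered from the RPKM steps, and the reads of a region were then tested between the groups (exact binomial, two-sided) and the p-values adjusted by Benjamini and Hochberg's method across the 16958 regions, with a threshold of 0.05. These tests compare merged libraries, not conditions, and cover counting error only, as do the 95% intervals given after ratios. The 71 regions together held 598 reads in mz knockouts and 587 in mz heterozygotes, and 911 reads in the treated and 1359 in the untreated pool. The median region of the 71 held 5 reads in each mz column, 8 in the treated pool and 16 in the untreated pool, so most single regions allow only large differences to be seen. As for the embryo's cell types, 42 regions lay near 10 inner cell mass genes, 12 near 4 of 8 trophectoderm genes and 7 near 3 of 10 cumulus and granulosa cell genes. Their ratios of summed RPKM, knockout over control, are given in that order. In the mz series they were 0.438 (0.367 to 0.522), 0.629 (0.443 to 0.893) and 0.817 (0.594 to 1.13), against 0.668 over all regions. In the inducible series they were 0.643 (0.575 to 0.718), 0.538 (0.425 to 0.677) and 0.868 (0.688 to 1.09), against 0.694. Accessibility of bound regions does not measure expression of these markers, and their part in the results below was not tested.

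NR5A2, a nuclear receptor also known as LRH-1, binds DNA as a single molecule. Glycolysis breaks glucose down to pyruvate in the cytosol, pyruvate enters the mitochondrion to feed the citrate cycle, and the malate-aspartate shuttle carries the reducing equivalents of cytosolic NADH across the inner mitochondrial membrane. Cleavage-stage mouse embryos are known to depend on pyruvate and lactate, with use of glucose growing toward the blastocyst stage, and the shuttle is known to let them use lactate.

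Of the 71 regions, 9 overlapped the promoter window of their own gene, taken from RefSeq (GRCm38.p6) as 250 bases before to 50 bases after the start of transcription. The genes are Got1, Aco1, Pcx, Suclg2, Cs, Idh1, Ogdh, Pkm and Sdha. As examples, 3 with the core of the NR5A2 site and 2 without it, the 250 bases before the start are shown for 5 of them, 5′ to 3′ on the gene's own strand. Capitals mark that core, AAGGNCA on either strand, which the stretches of Aco1 and Pcx do not hold. The marked cores of Got1 and Cs lie outside the bound region, and neither core of Pkm lies wholly inside it. They are chr19:43524606-43524855 (minus strand) for Got1, chr4:40143015-40143264 (plus strand) for Aco1, chr19:4510222-4510471 (plus strand) for Pcx, chr10:128337477-128337726 (plus strand) for Cs and chr9:59656326-59656575 (plus strand) for Pkm.
Got1: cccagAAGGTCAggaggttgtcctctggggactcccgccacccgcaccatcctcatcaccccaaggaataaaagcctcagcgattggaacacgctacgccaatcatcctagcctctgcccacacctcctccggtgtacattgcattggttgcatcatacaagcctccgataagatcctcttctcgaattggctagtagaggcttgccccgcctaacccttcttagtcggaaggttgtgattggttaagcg
Aco1: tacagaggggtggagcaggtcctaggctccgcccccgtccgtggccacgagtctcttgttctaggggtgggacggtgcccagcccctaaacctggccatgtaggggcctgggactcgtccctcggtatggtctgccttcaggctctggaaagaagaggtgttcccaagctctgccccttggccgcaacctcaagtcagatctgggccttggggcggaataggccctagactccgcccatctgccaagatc
Pcx: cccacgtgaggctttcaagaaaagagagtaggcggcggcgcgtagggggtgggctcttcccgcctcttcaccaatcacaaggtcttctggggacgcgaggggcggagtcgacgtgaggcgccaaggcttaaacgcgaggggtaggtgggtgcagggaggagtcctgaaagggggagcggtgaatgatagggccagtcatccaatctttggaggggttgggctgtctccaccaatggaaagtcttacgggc
Cs: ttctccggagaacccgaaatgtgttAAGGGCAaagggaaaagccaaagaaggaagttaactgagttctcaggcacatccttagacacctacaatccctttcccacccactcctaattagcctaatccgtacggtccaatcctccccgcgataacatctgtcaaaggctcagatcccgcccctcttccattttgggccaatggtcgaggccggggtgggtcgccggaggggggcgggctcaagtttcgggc
Pkm: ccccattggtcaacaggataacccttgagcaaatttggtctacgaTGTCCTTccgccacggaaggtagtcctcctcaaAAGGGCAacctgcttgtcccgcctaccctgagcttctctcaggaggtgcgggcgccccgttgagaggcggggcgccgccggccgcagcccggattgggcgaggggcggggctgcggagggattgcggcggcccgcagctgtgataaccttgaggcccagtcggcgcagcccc
A stretch of 30 bases at Ogdh (chr11:6292153-6292182, plus strand) is shown because the CUT&RUN summit that the authors recentred on a motif, position 6292166, falls on the core in it.
Ogdh: cggacacggcgcTGACCTTggtgcctgcgg

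The longer form of the site, TCAAGGNCA on either strand, was in none of these 9 windows and in 1 of 72 windows of the listed genes, at Ldhb, against 1.62% of all 32851 promoter windows. The core AAGGNCA, which is contained in the longer form, was in 5 of the 9 windows, in 23.6% of the 72 windows and in 20.3% of all windows. These counts cover whole windows, also their bases outside the bound region. At Got1, Cs and Ogdh the core lies outside the bound region, and at Pkm neither core lies wholly inside it. Only at Suclg2 does the core lie fully inside the bound region. Over the whole table, 73 of 123 recentred summits inside a promoter window had the core within 5 bases. Among the 9 regions, the recentred summit was the original one at Aco1, Got1, Pcx, Idh1 and Sdha. These regions belong to the 8 of 71 whose summit was not moved, against 63 that were moved. A match of letters is a description and not a binding site, and the other 62 regions lie outside the windows whose sequence was used here.

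Taken as a set, the 71 regions had a lower RPKM in the mz knockouts and in the treated pool than in their controls, by about as much as all regions. Whether a difference between the merged columns as a whole gave this was not tested. Their mean was 3.02 RPKM in mz knockouts and 4.86 RPKM in mz heterozygotes, a ratio of summed RPKM of 0.622 (0.554 to 0.698), against 0.668 over all regions. In the inducible series the mean was 2.18 RPKM in the treated and 3.12 RPKM in the untreated pool, a ratio of 0.699 (0.642 to 0.761), against 0.694 over all regions. The median log2 ratio, on the log2(RPKM + 1) scale that understates the change of low regions, was −0.35 in the mz series and −0.31 in the inducible series, against −0.32 and −0.35 over all regions. Both columns of control reads would have to be lowered by 0.71 (mz) and 0.56 (inducible) on the log2 scale to bring the median of all regions to no difference. The authors' deposited classes of change, which follow the mean of both deposited ratios with limits at 0.667 and 1.5, put 30 of the 71 regions in the class of loss (42.3%, against 41.5% of all regions), 34 in the unchanged class and 7 in the class of gain (9.86%, against 16.9% of all regions).

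In the mz series 1 of the 71 regions passed the test as lower, inside Got1, against 1.73% of all regions, and 0 passed as higher, against 0.0236%. In the inducible series 6 passed as lower, against 6.37% of all regions, and 0 as higher, against 0.0767%. These 6 lay near Pfkfb3 (3 regions), Idh1, Idh2 and Aco1. At an unadjusted p under 0.05 there were 13 lower (18.3%, against 11.9% of all regions) and 0 higher (against 0.708%) in the mz series. In the inducible series there were 17 lower (23.9%, against 19.7%) and 1 higher (1.41%, against 0.879%). The deposited ratio lay under 0.667 for 36 of the 71 in the mz series (50.7%, against 49.2% of all regions) and for 35 in the inducible series (49.3%, against 48.6%). It lay over 1.5 for 11 in the mz series (15.5%, against 20.3%) and for 2 in the inducible series (2.82%, against 8.57%). The Got1 call stayed past the threshold after scaling that set the median log2 ratio of all regions to 0 (adjusted p = 0.00144, exact binomial test) and when the summed RPKM of all regions was made equal between the columns (adjusted p = 0.000378, exact binomial test). The 6 inducible calls were all lost under both scalings, which left 0 lower and 0 higher. Their ratios stayed under 1 after median scaling, at 0.2501, 0.414 and 0.417 for Pfkfb3, 0.369 for Aco1, 0.416 for Idh2 and 0.623 for Idh1. The lost calls thus do not show that these differences went away. Since the regions were called for low ratios, values under 1 do not show that the differences hold either.

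**Figure D1:**
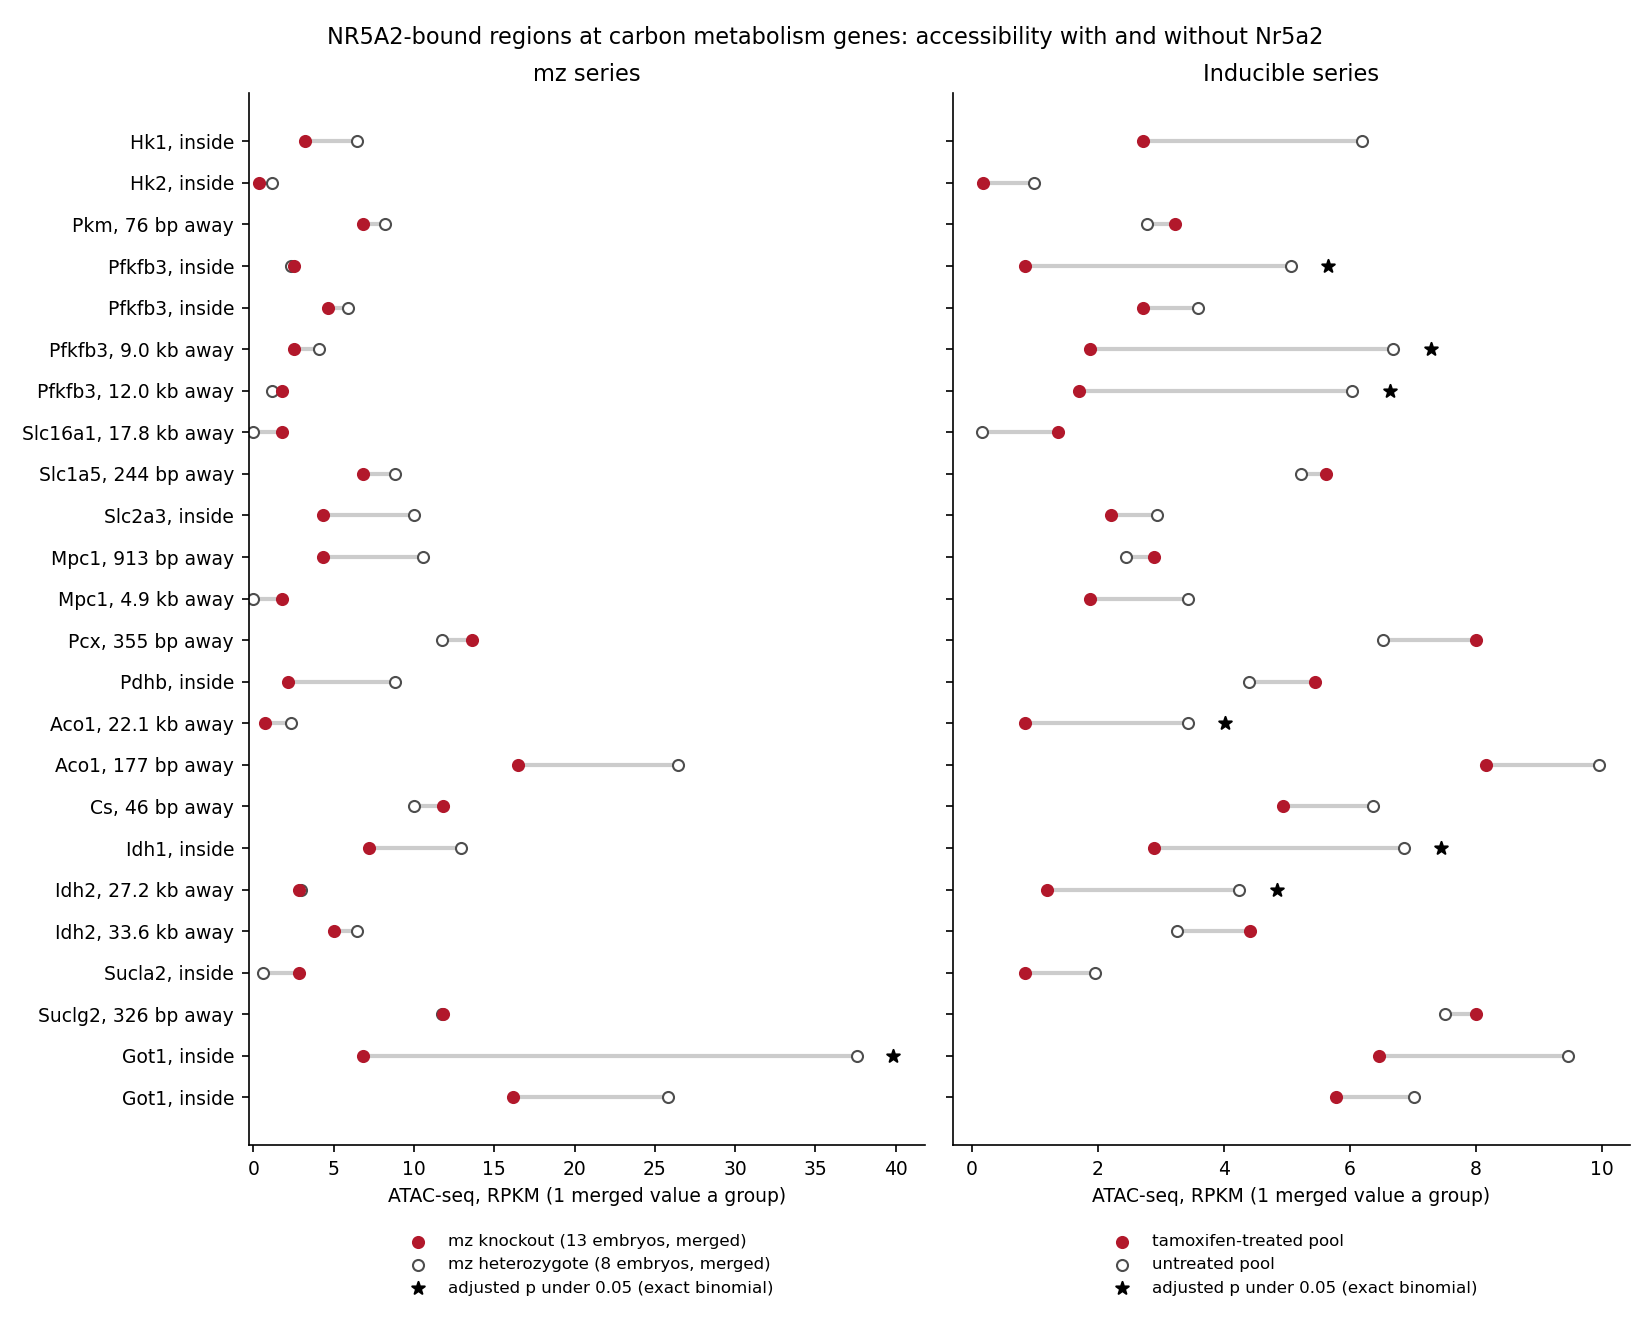
ATAC-seq RPKM (x axis, 1 merged value a group) at 24 member regions, grouped from glycolysis at the top to the malate-aspartate shuttle at the bottom. Filled points are the knockout or treated group, open points its control, and stars mark an adjusted p under 0.05. The star in the mz panel stands at Got1, and 3 of the 6 stars in the inducible panel stand at Pfkfb3.

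Regions over the start of a gene had higher ratios of summed RPKM than regions elsewhere in the set. A start site was in the table for the nearest gene of 62 of the 71 regions, and 10 of these 62 (16.1%) had their midpoint within 1 kb of a start site, against 5.01% of the 13520 regions of the whole table that could be placed. These 10 regions had a ratio of 0.772 (0.645 to 0.924) for the mz embryos and 0.896 (0.764 to 1.05) for the pools. The 52 farther regions had ratios of 0.546 (0.462 to 0.645) and 0.629 (0.563 to 0.701), and without the 3 Got1 regions among them 0.640 (0.532 to 0.770) and 0.621 (0.553 to 0.697). The intervals of the near and the farther regions met at 0.645 in the mz series and lay apart in the inducible series, and they overlapped widely in the mz series once Got1 was left out. The same order of summed ratios held over the whole table, so it is not particular to these genes. Near and farther regions there had 0.781 and 0.654 in the mz series and 0.847 and 0.679 in the inducible series. Median log2 ratios of the member regions did not show this order in the mz series, at −0.293 near and −0.277 farther. They did in the inducible series, at −0.055 and −0.370.

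**Figure D2:**
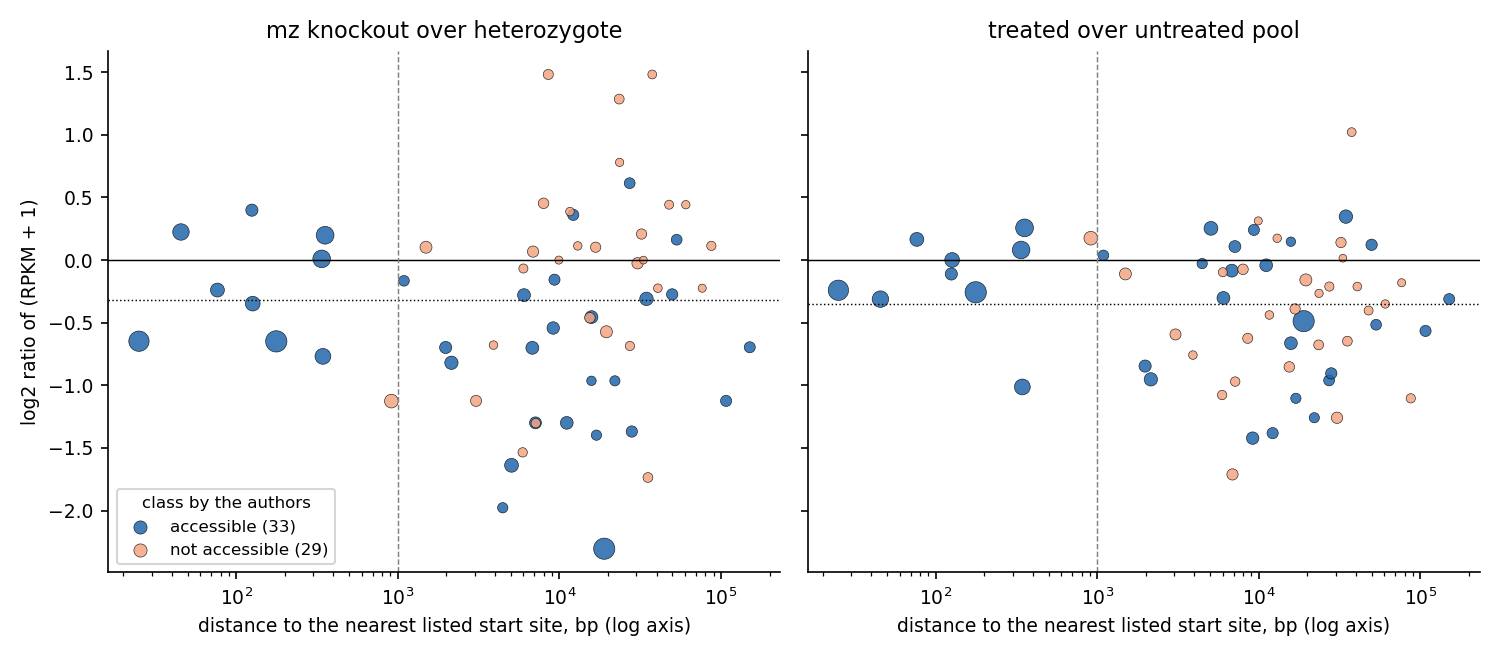
Log2 ratio of (RPKM + 1) against the distance to the nearest listed start site (log axis) for the 62 member regions that could be placed, in the mz (left) and inducible series (right). Larger points are more accessible, colours give the authors' class, the dashed line stands at 1 kb and the dotted line at the median of all regions. In the inducible panel all 10 points left of 1 kb lie above the dotted line except 1, at Idh1.

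Of the 13 genes of glycolytic enzymes, 5 had a region, and the 7 regions had a ratio of 0.597 (0.385 to 0.925) for the mz embryos and 0.538 (0.391 to 0.736) for the pools. None of the 7 passed the test in either series. Hk1, a hexokinase that traps glucose in the cell as glucose 6-phosphate, held 3 of them, all inside its span and all with a lower RPKM in both series, though in the mz series only 1 remained below a ratio of 1 after median scaling. The most accessible of these (chr10:62338080-62338467) had 3.23 RPKM in mz knockouts and 6.46 RPKM in mz heterozygotes, and 2.72 RPKM in the treated and 6.20 RPKM in the untreated pool (inducible adjusted p = 0.0731, exact binomial test). The other 2 Hk1 regions lie 188 bp apart and had inducible ratios of 0.417 and 0.556. The region in Hk2, another hexokinase gene, was the most strongly bound of this group at 6.87 RPKM in the CUT&RUN data of an earlier study, where a nuclease led by an antibody cuts around bound NR5A2 (chr6:82770412-82770674). It was nearly closed, with 0.359 RPKM in mz knockouts and 1.17 RPKM in mz heterozygotes, and 0.170 RPKM in the treated and 0.979 RPKM in the untreated pool. A region 5.93 kb from Pfkl, the liver-type phosphofructokinase (chr10:78015617-78015859), had 1 read in mz knockouts against 5 in heterozygotes and 1 read in the treated against 9 in the untreated pool, which did not pass after adjustment.

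The region at the start of Pkm, which encodes the pyruvate kinase of most tissues outside the liver, was the most accessible of the glycolytic group (chr9:59656407-59656592, overlapping the promoter shown above). It had 6.81 RPKM in mz knockouts and 8.22 RPKM in mz heterozygotes, a ratio of 0.829 (0.394 to 1.79). The treated pool had 3.23 RPKM and the untreated pool 2.77 RPKM, a ratio of 1.17 (0.573 to 2.39). Its CUT&RUN signal, 1.87 RPKM, was among the lower ones of the table, at percentile 9.56. Pfkp, the platelet-type phosphofructokinase, had a region with 0 reads in both mz columns and 2 reads in each pool. No region was nearest to Gpi1, Pfkm, Aldoa, Aldoc, Tpi1, Gapdh, Pgam1 or Eno1, nor to the lactate dehydrogenase genes Ldha and Ldhb.

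Pfkfb3 encodes a bifunctional enzyme that makes fructose 2,6-bisphosphate, the activator of phosphofructokinase. It was the only 1 of 3 listed genes of this family with regions, since Pfkfb2 and Pfkfb4 had none, and with 7 regions it held more than any other listed gene. Together these had a ratio of 0.454 (0.341 to 0.600) in the inducible series, below the interval of the whole set, and 0.926 (0.567 to 1.54) in the mz series. Of the 170 reads of the 7 regions in the untreated pool, the 3 called regions held 31, 41 and 37. The inducible ratio of the locus thus leans on regions called for low ratios. Its median log2 ratio was −0.40, against −0.35 over all regions. The region 9.02 kb outside the gene, upstream of its start (chr2:11562846-11563344), had the highest CUT&RUN signal of all 71, 20.5 RPKM at percentile 99.8 of the table. It fell to 1.87 RPKM in the treated pool, against 6.69 RPKM in the untreated pool, a ratio of 0.280 (0.130 to 0.554, exact binomial test, adjusted p = 0.00375). In the mz series it had 2.51 RPKM in knockouts and 4.11 RPKM in heterozygotes, 7 reads in each, without passing.

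A second upstream region at Pfkfb3, 12.05 kb outside (chr2:11565980-11566257), fell to 1.70 RPKM in the treated pool, against 6.04 RPKM in the untreated pool (ratio 0.282, adjusted p = 0.00704, exact binomial test). It had 1.79 RPKM in mz knockouts and 1.17 RPKM in mz heterozygotes, on 5 and 2 reads. A region inside the gene, 6.88 kb past the start (chr2:11546959-11547148), fell to 0.851 RPKM in the treated pool, against 5.06 RPKM in the untreated pool, the lowest ratio of the 7 at 0.168 (0.0510 to 0.436, exact binomial test, adjusted p = 0.00190). In the mz series it had 2.51 RPKM in knockouts and 2.35 RPKM in heterozygotes. Its neighbour 544 bp away (chr2:11547692-11548080), the most accessible of the 7 by mean RPKM, had 4.66 RPKM in mz knockouts and 5.87 RPKM in mz heterozygotes, and 2.72 RPKM in the treated and 3.59 RPKM in the untreated pool, and passed in neither series. The region nearest the start, 1.50 kb upstream of it (chr2:11555341-11555507), had 3.40 RPKM in the treated and 3.75 RPKM in the untreated pool, with 3.23 RPKM in mz knockouts and 2.94 RPKM in mz heterozygotes. Within 1 locus 3 regions were several-fold lower in the treated pool while the 4 others were not called.

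**Figure D3:**
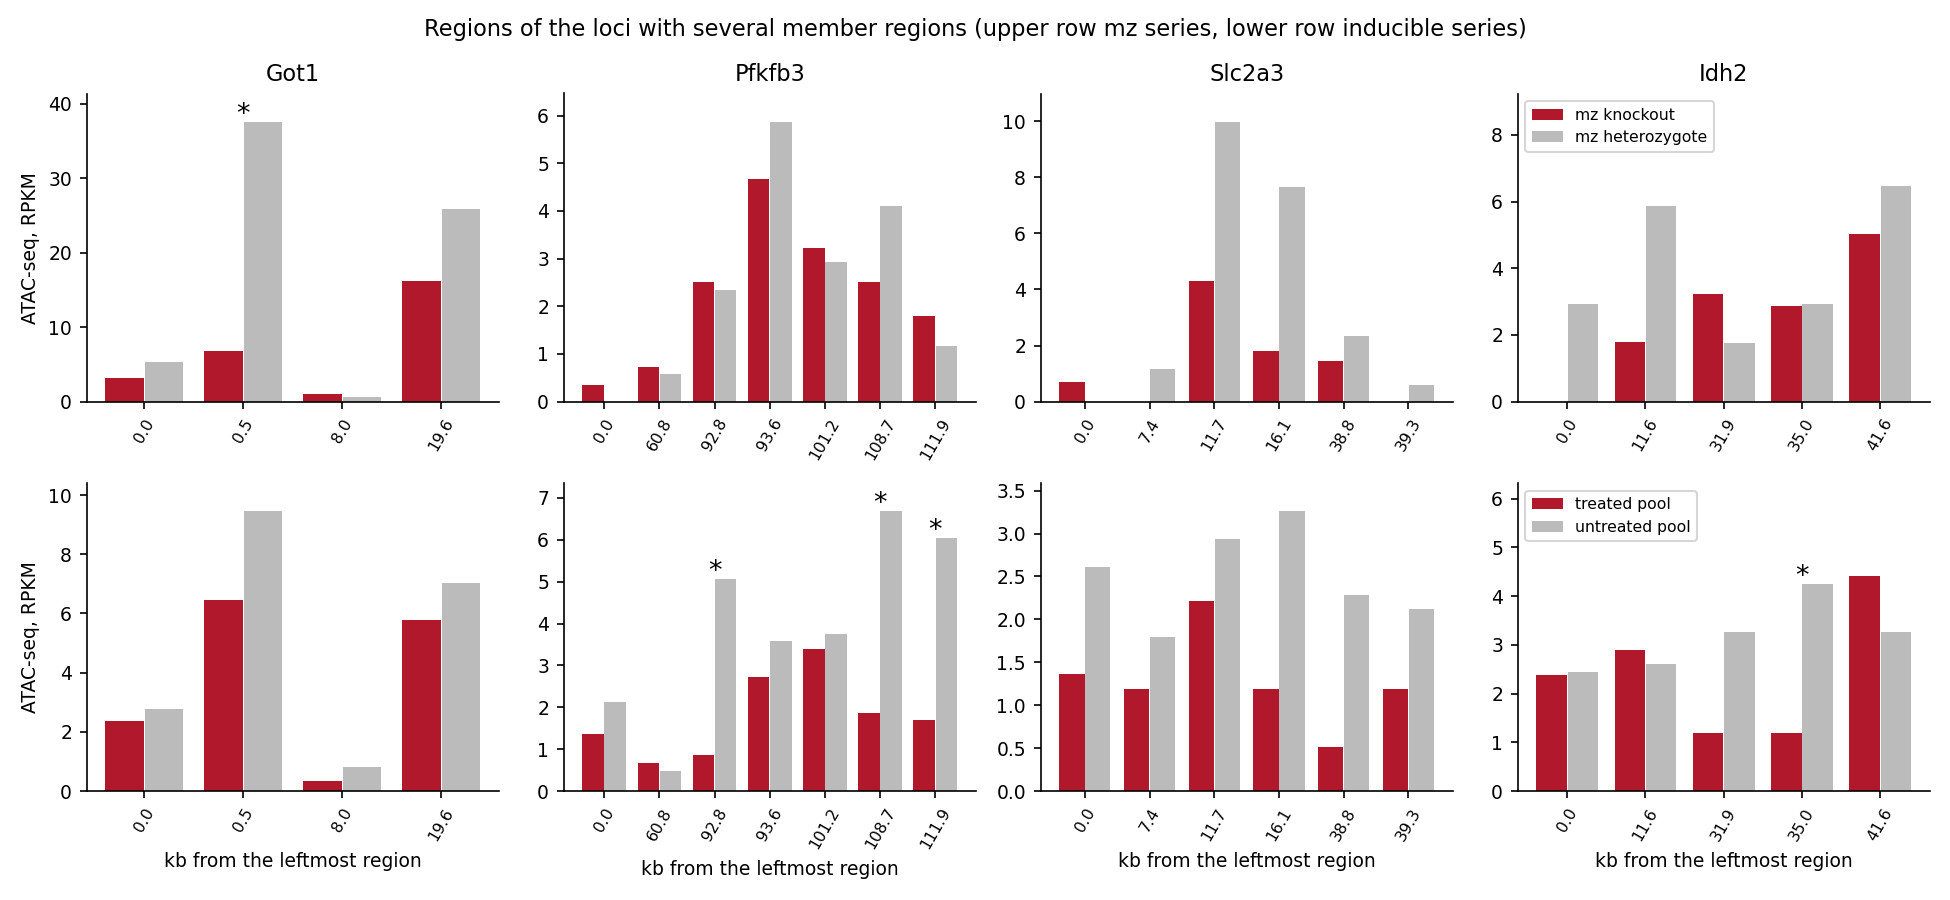
ATAC-seq RPKM (y axis, 1 merged value a group) of every member region of Got1, Pfkfb3, Slc2a3 and Idh2, with the mz series above and the inducible series below. The knockout or treated group is the left bar of each pair, x labels give kb from the leftmost region, and asterisks mark an adjusted p under 0.05. At Got1 the asterisk stands at 0.5 kb in the mz series, and at Pfkfb3 the 3 asterisks stand in the inducible series.

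All 5 listed transporter genes had regions, 14 in all, with ratios of 0.477 (0.342 to 0.663) for the mz embryos and 0.654 (0.518 to 0.824) for the pools. None passed the test singly. Slc2a3 encodes the high-affinity glucose transporter GLUT3, which the embryo is known to use for glucose uptake, and its 6 regions all lay inside the RefSeq span. Of these, 5 had a lower RPKM in both series, and after median scaling 4 (mz) and 5 (inducible) of the 6 were below a ratio of 1. The locus had ratios of 0.380 (0.215 to 0.656) and 0.510 (0.349 to 0.736). The most strongly bound (chr6:122762216-122762743, CUT&RUN 9.67 RPKM) had 4.30 RPKM in mz knockouts and 9.99 RPKM in mz heterozygotes, and 2.21 RPKM in the treated and 2.94 RPKM in the untreated pool. Its neighbour (chr6:122766593-122766882) had 1.79 RPKM in mz knockouts and 7.64 RPKM in mz heterozygotes (adjusted p = 0.139, exact binomial test), and 1.19 RPKM in the treated and 3.26 RPKM in the untreated pool. The promoter table used here holds no start for Slc2a3, and the nearest start in it was that of Nanog, a pluripotency gene, for 3 of the 6 regions.

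Slc2a1, the gene of the broadly expressed glucose transporter GLUT1, had 2 accessible regions, both lower in both series. The region inside the gene (chr4:119136748-119136939) had 1.43 RPKM in mz knockouts and 5.29 RPKM in mz heterozygotes, and 1.19 RPKM in the treated and 3.10 RPKM in the untreated pool. The region 17.0 kb outside (chr4:119091691-119091865) had 0.717 RPKM in mz knockouts and 3.52 RPKM in mz heterozygotes, and 0.681 RPKM in the treated and 2.61 RPKM in the untreated pool. The locus ratio was 0.244 (0.0776 to 0.666) for the mz embryos and 0.328 (0.150 to 0.660) for the pools. Neither region passed after adjustment, with adjusted p of 0.353 and 0.407 in the mz series and 0.184 and 0.108 in the inducible series by the exact binomial test.

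Slc16a1, which encodes the monocarboxylate transporter MCT1, had 3 regions outside the gene with a locus ratio of 0.488 (0.168 to 1.37) for the mz embryos and 1.17 (0.573 to 2.39) for the pools. Its regions pointed in different directions, and none passed. The region 35.3 kb away (chr3:104603087-104603545) had 1 read in mz knockouts and 6 in heterozygotes, a ratio of 0.102 (0.00221 to 0.839, exact binomial test, adjusted p = 0.202), with 4 reads in the treated and 10 in the untreated pool. The region 17.8 kb away on the other side (chr3:104676160-104676353) had 5 reads in mz knockouts and 0 in heterozygotes, which is at least 1.02-fold higher against a floor of 3 reads in the heterozygote column. It had 8 reads in the treated pool and 1 in the untreated pool, a ratio of 8.34 (1.12 to 370) that did not pass after adjustment (adjusted p = 0.144, exact binomial test). The region near Slc16a3, the gene of the lactate exporter MCT4 (chr11:120940874-120941288), had 3.59 RPKM in mz knockouts and 2.35 RPKM in mz heterozygotes, and 1.19 RPKM in the treated and 1.31 RPKM in the untreated pool. The region 245 bp before the low-coordinate edge of the span of Slc1a5, a glutamine transporter gene (chr7:16780937-16781242), was the most accessible of the transporter group. The promoter table holds no start for Slc1a5 either, so the region was not placed relative to its start. It had 6.81 RPKM in mz knockouts and 8.81 RPKM in mz heterozygotes, and 5.62 RPKM in the treated and 5.22 RPKM in the untreated pool.

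Regions of the pyruvate group, 7 near 4 of 9 genes, had ratios of 0.735 (0.520 to 1.04) for the mz embryos and 0.937 (0.736 to 1.19) for the pools, and none passed the test. Mpc2, Dlat, Dld, Pdk2 and Pdk4 had no region. Pcx encodes pyruvate carboxylase, which refills the citrate cycle with oxaloacetate, and both of its regions were higher in both series. The region over the Pcx start (chr19:4509826-4510408, the Pcx promoter shown above) had 13.6 RPKM in mz knockouts and 11.7 RPKM in mz heterozygotes, a ratio of 1.16 (0.658 to 2.10). It had 8.00 RPKM in the treated and 6.53 RPKM in the untreated pool, a ratio of 1.23 (0.786 to 1.92). Neither difference passed the test.

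The region inside Pdhb, the beta subunit gene of the E1 enzyme of pyruvate dehydrogenase (chr14:8167781-8168087), pointed in opposite directions in the 2 series. It had 2.15 RPKM in mz knockouts and 8.81 RPKM in mz heterozygotes, a ratio of 0.244 (0.0776 to 0.666, exact binomial test, adjusted p = 0.0912), on 6 against 15 reads. It had 5.45 RPKM in the treated and 4.41 RPKM in the untreated pool, a ratio of 1.24 (0.717 to 2.14). An exact test between the series gave an unadjusted p of 0.00405 and did not pass after adjustment (adjusted p = 0.963). Mpc1 encodes a subunit of the mitochondrial pyruvate carrier, and the most strongly bound region of this group, CUT&RUN 7.74 RPKM, lay 913 bp upstream of its start (chr17:8282587-8283161). That region had 4.30 RPKM in mz knockouts and 10.6 RPKM in mz heterozygotes (adjusted p = 0.209, exact binomial test), and 2.89 RPKM in the treated and 2.45 RPKM in the untreated pool. Another Mpc1 region (chr17:8302396-8302720) had 5 reads in mz knockouts and 0 in heterozygotes, and 11 and 21 reads in the treated and untreated pool. The region in Pdk1, a kinase gene whose product switches pyruvate dehydrogenase off, had 2 reads in mz knockouts and 0 in heterozygotes, and 3 and 5 reads in the pools.

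**Figure D4:**
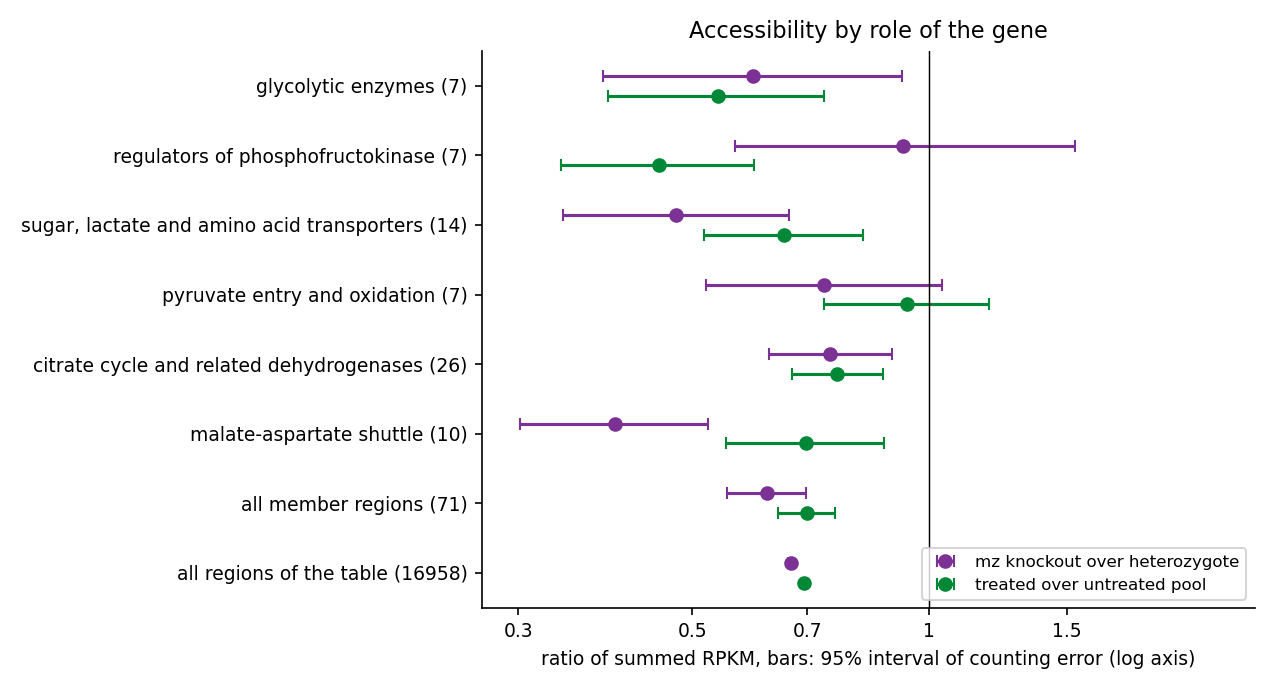
Ratio of summed RPKM, knockout over control (x axis, log), for the member regions of each role, for all 71 and for all regions of the table, with the number of regions in brackets. Bars are exact 95% intervals of counting error. The malate-aspartate shuttle has the lowest mz ratio, 0.398, and the phosphofructokinase regulators the lowest inducible ratio, 0.454. The 7 regulator regions are all those of 1 gene, Pfkfb3. In the shuttle, 1 Got1 region holds 64 of the 138 mz heterozygote reads.

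The citrate cycle and related dehydrogenases held 26 regions near 11 of 12 genes, Fh1 having none, and 6 of them lay within 1 kb of a start site. Their ratios were 0.750 (0.626 to 0.898) for the mz embryos and 0.765 (0.670 to 0.873) for the pools. None passed in the mz series and 3 passed as lower in the inducible series. Aco1, the cytosolic aconitase and iron regulatory protein, had the most accessible region of the group at its start (chr4:40142996-40143180, the Aco1 promoter shown above). This region had 16.5 RPKM in mz knockouts and 26.4 RPKM in mz heterozygotes, a ratio of 0.624 (0.405 to 0.963), and 8.17 RPKM in the treated and 9.96 RPKM in the untreated pool, a ratio of 0.820 (0.550 to 1.22), without passing. A region 22.1 kb from Aco1 (chr4:40121103-40121277) fell to 0.851 RPKM in the treated pool, against 3.43 RPKM in the untreated pool (ratio 0.248, adjusted p = 0.0441, exact binomial test), and had 0.717 RPKM in mz knockouts and 2.35 RPKM in mz heterozygotes.

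Idh1 encodes the cytosolic NADP-dependent isocitrate dehydrogenase. A region inside it (chr1:65178486-65179110), 344 bp past its start, fell to 2.89 RPKM in the treated pool, against 6.86 RPKM in the untreated pool, a ratio of 0.422 (0.225 to 0.757, exact binomial test, adjusted p = 0.0424). In the mz series it had 7.17 RPKM in knockouts and 12.9 RPKM in heterozygotes, a ratio of 0.555 (0.287 to 1.07). It was the only 1 of the 10 regions near a start site to pass in either series. Idh2, the mitochondrial counterpart, had 5 regions, 1 inside the gene and 4 outside. The region 27.2 kb outside the gene (chr7:80145549-80146161) fell to 1.19 RPKM in the treated pool, against 4.24 RPKM in the untreated pool (ratio 0.281, adjusted p = 0.0305, exact binomial test), and had 2.87 RPKM in mz knockouts and 2.94 RPKM in mz heterozygotes. The region inside Idh2 (chr7:80110557-80111217) had 0 reads in mz knockouts and 5 in heterozygotes, at least 2.73-fold lower against a floor of 3 reads in the knockout column. It had 2.38 RPKM in the treated and 2.45 RPKM in the untreated pool. The region farthest from Idh2 (chr7:80152144-80152352) had 4.42 RPKM in the treated and 3.26 RPKM in the untreated pool, with 5.02 RPKM in mz knockouts and 6.46 RPKM in mz heterozygotes.

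None of the other starts of this group passed the test in either series. Cs encodes citrate synthase, the first enzyme of the cycle. The region at its start (chr10:128337583-128337780) had 11.8 RPKM in mz knockouts and 9.99 RPKM in mz heterozygotes, a ratio of 1.19 (0.641 to 2.27), and 4.93 RPKM in the treated and 6.37 RPKM in the untreated pool, a ratio of 0.775 (0.462 to 1.29). The region at the start of Suclg2, which encodes the GTP-specific subunit of succinyl-CoA synthetase (chr6:95718971-95719397), was the most strongly bound of the group at 9.60 RPKM in CUT&RUN. It had 11.8 RPKM in mz knockouts and 11.7 RPKM in mz heterozygotes, and 8.00 RPKM in the treated and 7.51 RPKM in the untreated pool. The region at an Ogdh start (chr11:6291929-6292158), a gene of the 2-oxoglutarate dehydrogenase complex, had 7.17 RPKM in mz knockouts and 9.40 RPKM in mz heterozygotes, and 4.08 RPKM in both pools. The Sdha region (chr13:74349945-74350285), at a succinate dehydrogenase gene, overlaps the promoter windows of both Sdha and Ccdc127 and had 5.74 RPKM in mz knockouts and 4.11 RPKM in mz heterozygotes, and 2.04 RPKM in the treated and 2.29 RPKM in the untreated pool. Inside Sucla2, the ATP-specific subunit gene, a region not classed as accessible (chr14:73576035-73576493) had 8 reads in mz knockouts and 1 in heterozygotes, a ratio of 4.88 (0.655 to 217), and 5 and 12 reads in the treated and untreated pool.

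The malate-aspartate shuttle had 10 regions near 3 of 7 genes, Mdh1, Mdh2, Got2 and Slc25a11 having none. Its ratio was 0.398 (0.302 to 0.523) in the mz series, the lowest of the roles, and 0.697 (0.552 to 0.877) in the inducible series. In the mz series the ratio was 0.393 (0.291 to 0.529) at the 4 regions of Got1, the gene of the cytosolic aspartate aminotransferase. It was 0.407 (0.144 to 1.08) at Slc25a13 and 0.458 (0.131 to 1.50) at Slc25a12, intervals that include both 1 and the 0.668 of all regions. A region inside Got1, 19.0 kb past its start (chr19:43505384-43505906), fell to 6.81 RPKM in mz knockouts, against 37.6 RPKM in mz heterozygotes, a ratio of 0.181 (0.103 to 0.306, exact binomial test, adjusted p = 9.23e-09). It rested on 19 reads in knockouts and 64 in heterozygotes, and the heterozygote value was the highest of any of the 71 regions in any column. All 10 shuttle regions together held 90 and 138 reads, so the ratio of the role leans on this 1 region. In the inducible series it had 6.47 RPKM in the treated and 9.47 RPKM in the untreated pool, a ratio of 0.683 (0.441 to 1.05) that did not pass. An exact test between the series gave an unadjusted p of 8.65e-05, and an adjusted p of 0.141.

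None of the other Got1 regions passed the test in either series. The region over the Got1 start (chr19:43524501-43524659, the Got1 promoter shown above) had 16.1 RPKM in mz knockouts and 25.8 RPKM in mz heterozygotes, a ratio of 0.624 (0.403 to 0.968) whose interval does not overlap that of the inner region. It had 5.79 RPKM in the treated and 7.02 RPKM in the untreated pool. The neighbour 173 bp from the inner region (chr19:43504875-43505211) had 3.23 RPKM in mz knockouts and 5.29 RPKM in mz heterozygotes, a ratio of 0.611, and 2.38 RPKM in the treated and 2.77 RPKM in the untreated pool. The fourth Got1 region (chr19:43512887-43513056) had 3 reads in mz knockouts and 1 in heterozygotes. Slc25a12 and Slc25a13 encode the aspartate-glutamate carriers of the inner mitochondrial membrane, and none of their 6 regions, 4 and 2, passed the test. All 6 had a lower RPKM in the mz knockouts and in the treated pool than in their controls, on few reads. The Slc25a12 regions had 1, 1, 3 and 1 reads in mz knockouts, against 1, 1, 2 and 4 in mz heterozygotes. With the median log2 ratio of all regions set to 0, only 1 of the 4 Slc25a12 regions remained below a ratio of 1 in the mz series and 2 in the inducible series, and of the 2 Slc25a13 regions 2 and 1 did. Both Slc25a13 regions were classed as accessible, and 1 of them (chr6:6109279-6109704) had 1.08 RPKM in mz knockouts and 3.52 RPKM in mz heterozygotes, and 2.21 RPKM in the treated and 3.75 RPKM in the untreated pool.

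The series also differ in culture and pooling, and possibly in collection date, which was not looked at here. None of these can be told apart from the way Nr5a2 was removed. Of the 71 regions, 36 (50.7%) were lower in both knockouts, against 50.5% of all regions, and 5 (7.04%) were higher in both, against 9.98%. The exact test of a difference between the series passed for 0 of the 71 after adjustment, against 0.0177% of all regions, and for 6 (8.45%) at an unadjusted p under 0.05, against 4.41% of all regions. Across the 71 regions the log2 ratios of the series had a Spearman rho of 0.126 and a Pearson r of 0.144, and across all regions 0.208 and 0.219, as a description over regions that share libraries and have few reads each. The log2 ratio was slightly lower at regions with more CUT&RUN signal, with a Spearman rho of −0.253 (mz) and −0.290 (inducible) over the 71 regions, and −0.158 and −0.214 over all regions.

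**Figure D5:**
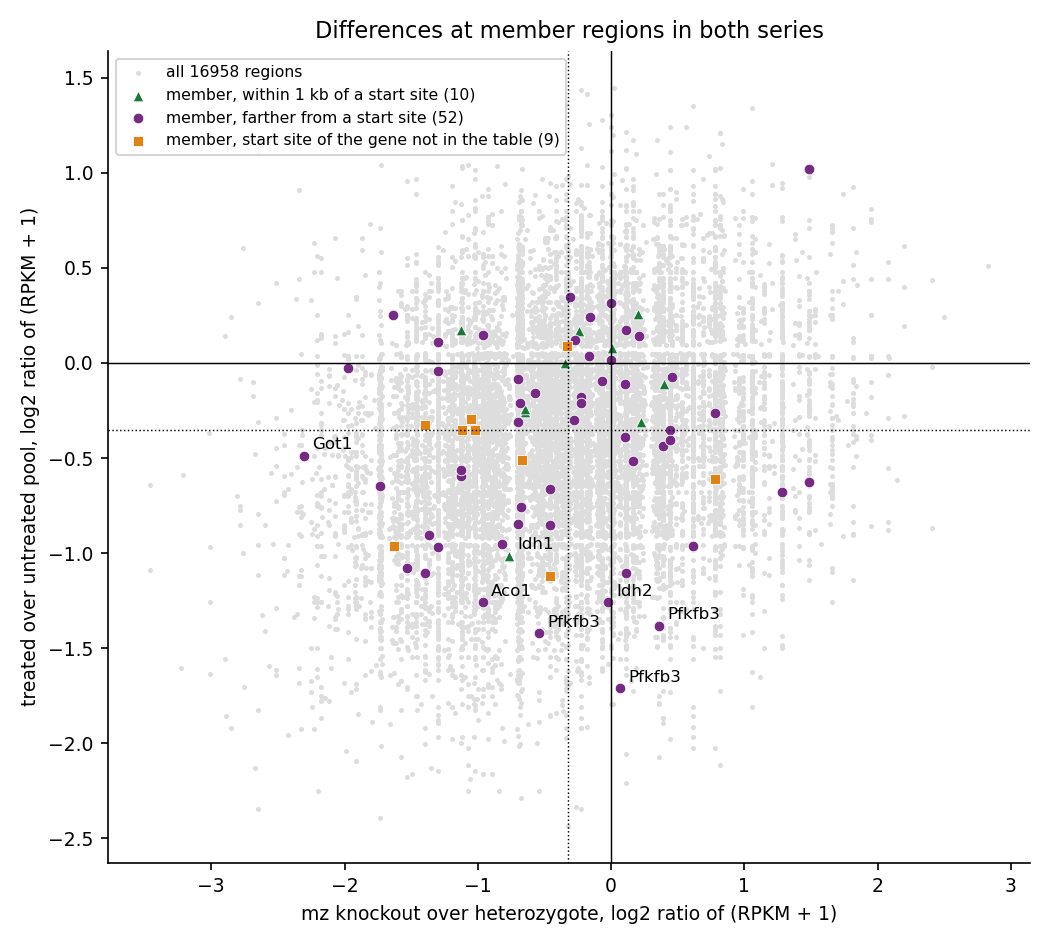
Log2 ratio of (RPKM + 1) in the mz series (x axis) and in the inducible series (y axis) for all regions (grey) and the 71 member regions (coloured by position), with dotted lines at the medians of all regions. The called regions, named by gene, lie far left (Got1) or low (Pfkfb3, Idh1, Idh2, Aco1), and no member region is called in both series.

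The other genes of the same pathways were looked at for comparison. Of 49 further genes, among them Pgk1, Pklr, Pdha1 and Slc1a1, 20 had a region, 37 in all. These had ratios of 0.665 (0.557 to 0.795) for the mz embryos and 0.709 (0.629 to 0.799) for the pools, close to those of the 71. None passed in the mz series, against 1.73% of all regions as lower and 0.0236% as higher. In the inducible series 5 (13.5%) passed as lower, against 6.37% of all regions, and 0 as higher, against 0.0767%. They were 2 regions at Pklr, the pyruvate kinase gene of liver and red cells, and 1 each inside Sdhc, Got1l1 and Slc2a12. At Pklr a region 13.6 kb outside (chr3:89122462-89122639) fell to 0.340 RPKM in the treated pool, against 3.59 RPKM in the untreated pool (ratio 0.0948, adjusted p = 0.00351, exact binomial test). In the mz series it had 0 reads in knockouts and 3.52 RPKM in heterozygotes. All 5 calls were lost when the columns were scaled as above.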

How the data were processed

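ATAC-seq libraries of 21 mz embryos and 2 inducible pools were grouped by their titles. Cutadapt, Bowtie2, MACS2 and mm10 are named per the submitters' processing notes, with no versions or settings. How insertions were shifted, duplicates removed or embryos merged is not stated in these sources, and duplicates left in would make the intervals too narrow. The deposited table gives ATAC-seq and CUT&RUN values in RPKM, and the authors' deposited ratio equals (knockout + 0.01)/(control + 0.01) in both series. All ATAC-seq values were whole multiples of a step per column, within 0.001 of the step (0.359 for mz knockouts, 0.587 for mz heterozygotes, 0.170 treated, 0.163 untreated), so reads were recovered by division. Since 1 step held for regions of every length, values were not divided by each region's own length. The width counted is unknown, so neighbours may share reads.

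Exact binomial tests and Clopper-Pearson intervals (scipy 1.17.1, pandas 2.3.3, Python 3.11.15) used these reads and were checked on simulated data. No filter on low values was applied. With 1 column per group, no test over embryos was possible. Named regions were those called in either series, the most bound and most accessible of each role and the 5 largest differences each way. Other regions given with their own values fall outside this rule and were chosen after their values were seen. Members, lists and tests were chosen with earlier results of these data known. Start sites and promoter sequences are those of RefSeq (GRCm38.p6), which gave an entry for 48 of 51 genes, and exon positions were not used here.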

Additional observations from a re-analysis of the deposited data

How the results depend on the processing

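The settings tried were 2 other scalings, a minimum of 10 reads, a distance of 10 kb, accessible regions only, another pseudocount and leaving out genes. Regions called lower in the mz series were 2 in place of 1 when only regions with at least 10 reads were tested, the second being the Pdhb region (adjusted p = 0.0432, exact binomial test), because fewer regions were tested. Regions called lower in the inducible series were 0 in place of 6 under median scaling and under sum scaling, where their adjusted p (exact binomial test) ran from 0.0741 at Pfkfb3 to 0.542 at Idh1. They were 3 within 10 kb of the gene, since the other 3 lie farther away. The inducible median log2 ratio was −0.54 with a pseudocount of 0.1, against −0.53 over all regions with the same pseudocount. No region was called higher under any setting. With any 1 gene left out, the ratio of summed RPKM lay between 0.599 (without Pcx) and 0.680 (without Got1) in the mz series and between 0.680 (without Pcx) and 0.734 (without Pfkfb3) in the inducible series. Of the named regions not called, 8 of 15 mz ratios and 6 of 10 inducible ratios under 1 came to lie above 1 under median scaling, and none was called. The number of reads limits single regions. No paired analysis was possible because the table holds 1 merged value a group, and for the same reason leaving out single embryos was not run.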
